A study of Mus musculus with 24 samples.

Results

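Translation initiation and elongation factors were followed in the nuclear RNA of mouse hippocampus. The members were chosen by symbol alone: every gene named Eif1 to Eif6 or Eef1 to Eef2 with its letter or number endings, pseudogenes marked -ps left out. This rule found 72 of the 55254 listed genes. Of these, 68 passed the filter on low counts in both cell types, whereas Eif4e1b, Eif2c5, Eif4a3l1 and Eif4a3l2 never exceeded 6 counts in any of the 24 libraries and were not tested.

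The nuclei came from male C57BL/6N mice at 6 months of age. They were stained for NeuN, a protein of neuronal nuclei, and sorted into NeuN+ (neurons) and NeuN- (non-neuronal cells). In each cell type there were 3 libraries of WT, 3 labelled Mutyh-/- (no adenine DNA glycosylase), 3 labelled Ogg1-/- (no 8-oxoguanine DNA glycosylase) and 3 labelled DKO, in which the deficiency for Mutyh and Ogg1 was combined by crossing. All groups shared the strain background and standard home-cage housing, and the labels name no treatment. Both deficiencies affect the whole animal, and nuclei of several animals of a genotype were pooled. The sources used here do not say how the pools relate to the 3 replicates, so the tests measure the spread between libraries, which may in part be technical. Per the labels the sorted fractions did not share sequencing lanes, so an effect of the lane and one of the cell type cannot be told apart.

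Initiation factors bring the small ribosomal subunit and the initiator tRNA to the cap of an mRNA and on to the start codon. eIF4F binds the cap and unwinds the leader, eIF3 and eIF2 carry the subunit and the tRNA, and eIF1, eIF1A and eIF5 control the recognition of the start codon. Elongation factors then deliver each aminoacyl-tRNA (eEF1A) and move the ribosome along (eEF2). In the brain several of these factors exist as paralog pairs, of which eEF1A1 and eEF1A2 are the best known, eEF1A2 being the form of mature neurons and muscle. Some of their mRNAs carry a TOP element, a stretch of pyrimidines at the very 5′ end through which mTOR controls their translation.

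The windows of 30 bases around the annotated transcript starts are shown for the members that passed a genotype comparison, apart from Eif4g2, and for Eef1a2 and Eef2, since a TOP element would lie there. Sequences are from RefSeq (GRCm38.p6), read 5′ to 3′ on the gene's strand with 15 bases before the start and 15 from it on, and capitals mark the longest unbroken run of C or T.
Eef1a1 (chr9:78481710-78481739, minus strand): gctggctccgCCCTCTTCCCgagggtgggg
Eef1a2 (chr2:181157001-181157030, minus strand): TCTCTCCTggtctgcgttctcgctcactgg
Eef2 (chr10:81176616-81176645, plus strand): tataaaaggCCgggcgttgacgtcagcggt
Eif1ax (chrX:159372163-159372192, plus strand): gaggaggaggagggcggggagaagCCCCgc
Eif5 (chr12:111538086-111538115, plus strand): gagaTCgacgtgcatgcgagccaatgacaa
Eif3g (chr9:20898576-20898605, minus strand): TCTTTacccgggctgggagctgcgtggagt
The longest run of C or T was 10 bases in the window of Eef1a1, where it spans the start, and 8 in that of Eef1a2, where it lies wholly upstream. It ranged from 2 to 5 bases in the other windows shown. Eef2, one of the TOP mRNAs listed for this report, had a run of 2. A short run at an annotated start thus does not show that a TOP element is absent. The window of Eef1a1 lies inside the gene span given below, not at its 5′ end. Of the 55 members with a promoter sequence, 11 (20%) had a run of 8 or more anywhere in the window, against 3205 of 27025 symbols (11.9%). The letters TATAAA, searched on both strands of the 250 bases upstream, were in 5 of 55 members (9.09%) and in 13.0% of all symbols.

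Depth was high in all libraries, but some tested members had low counts, such as 27 to 226 for Eif4ebp1. Total counts per library ranged from 56563586 to 96192142, and Eef1akmt3, one of the lowest members tested, had between 19 and 99 counts. Levels are given as CPM, the count divided by library size and scaled, with all 24 libraries scaled together by TMM, and fold changes come from the test. In WT all 8 neuronal markers were higher in the neurons, with a summed level of 12450 to 13760 CPM against 1142 to 1293 CPM in the non-neuronal cells, and all 5 markers of oligodendrocytes, 6 of astrocytes and 5 of microglia were higher in the non-neuronal cells. Mutyh RNA was not lower but higher in the libraries labelled Mutyh-/- (9.88 to 11.5 CPM in NeuN+, WT 1.15 to 1.28), and Ogg1 RNA in the libraries labelled Ogg1-/- (3.21 to 3.66 CPM) overlapped WT (2.77 to 3.78 CPM). In NeuN+, Mutyh RNA had 8.47 to 12.2 CPM in DKO and 1.15 to 1.41 CPM in Ogg1-/-. In NeuN- it had 9.28 to 9.71 CPM in Mutyh-/- and 6.65 to 9.22 CPM in DKO. The NeuN- libraries of WT had 2.39 to 2.82 CPM and those of Ogg1-/- 2.92 to 3.29 CPM. Mutyh levels thus set the libraries labelled Mutyh-/- or DKO apart from the others. A count over the whole gene cannot tell which part of it is deleted, so no level shows a deletion, and the Ogg1 levels do not check the labels.

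Translation factors were largely shared between the cell types, with a few members at very different levels. In WT, 6 of 68 members had an adjusted p under 0.05 together with a log2 difference beyond 1 in either direction, while 42.9% of all 33523 genes tested did so. Eef1a2, Eif4e3 and Eef1akmt3 were higher in neurons (21.3% of all genes), and Eif2ak2, Eef2kmt and Eif4ebp1 were higher in non-neuronal cells (21.6%). At an adjusted p under 0.05 with no limit on size, 21 members were higher in NeuN+ and 27 higher in NeuN- (36.1% and 36.3% of all genes, 72.4% together). The median log2 difference of the members was -0.06, and that of all genes was -0.01.

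**Figure D1:**
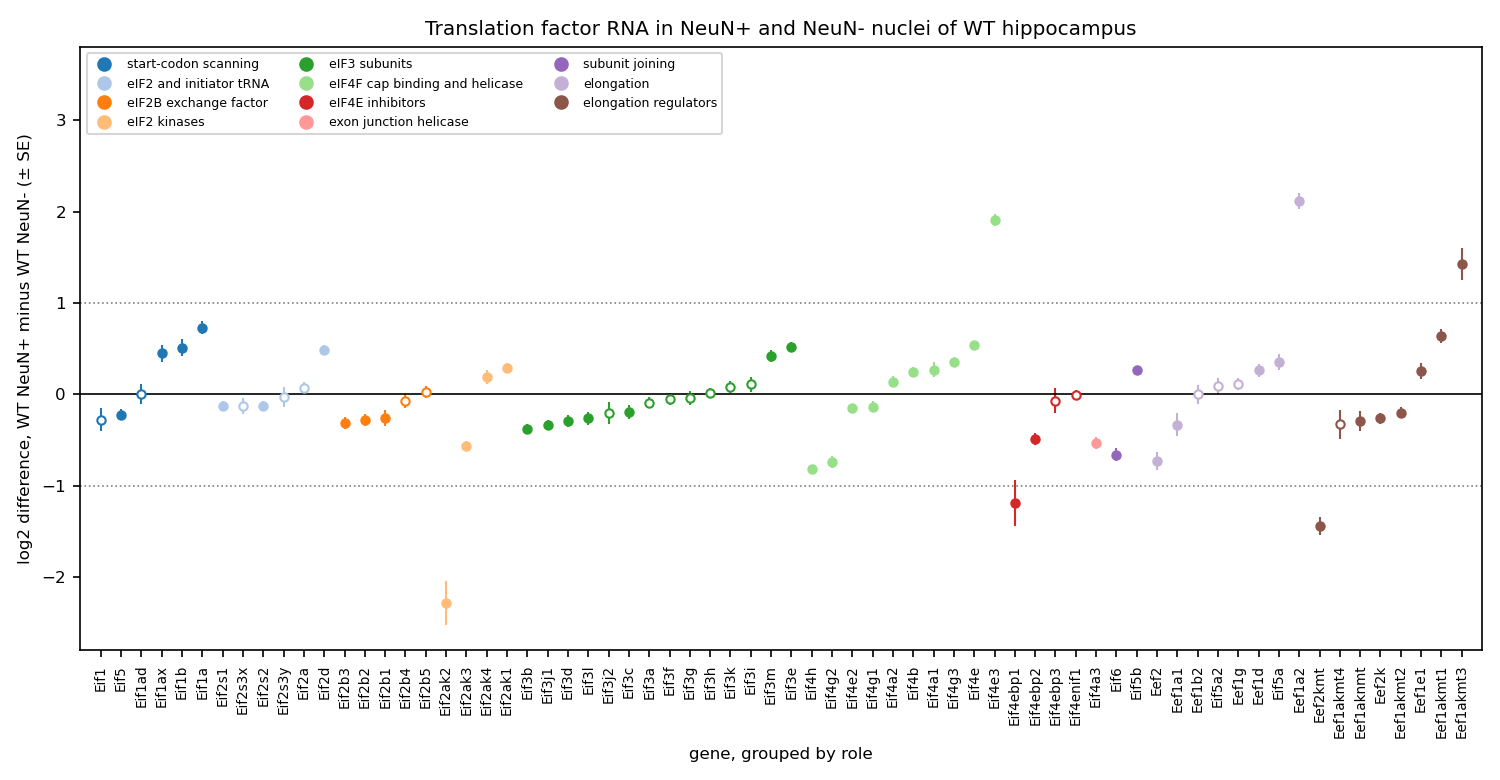
Difference between WT NeuN+ and WT NeuN- for the 68 members tested (y axis, log2, NeuN+ minus NeuN-, bars are ± 1 SE), grouped by role (x axis), with filled points at an adjusted p under 0.05 and dotted lines at the limit of 1. Eef1a2, Eif4e3 and Eef1akmt3 lie above the upper line and Eif2ak2, Eef2kmt and Eif4ebp1 below the lower line, and the other members lie between them.

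Among the elongation factors the eEF1A pair set the cell types apart. Eef1a2 (chr2:181147653-181157014, minus strand, protein coding), which encodes the eEF1A of mature neurons, had 98.2, 115 and 118 CPM in the WT NeuN+ libraries and 24.9, 25.2 and 26.4 CPM in WT NeuN-. Its log2 difference was 2.11 ± 0.09 (SE), a 4.33-fold higher level in neurons (adjusted p = 7.8e-16). Eef1a1 (chr9:78478449-78489151, minus strand, protein coding), the form made in most tissues, went the other way, with 84.2, 87.7 and 87.3 CPM in NeuN+ and 110, 111 and 107 CPM in NeuN-. The libraries of the cell types did not overlap for either gene, but the difference for Eef1a1 was small at -0.33 ± 0.13 (adjusted p = 0.0214), and without WT NeuN+ replicate 1 it was -0.32 with an adjusted p of 0.0604.

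Per length of exon, Eef1a2 was the highest member in neurons with 53.0 ± 5.14 RPKM (SD, n = 3), above Eef1a1 with 34.7 ± 0.762 RPKM. In non-neuronal cells the order was reversed, with 43.7 ± 0.891 RPKM for Eef1a1, the highest member there, and 12.2 ± 0.365 RPKM for Eef1a2. Eif4g3 stood next to the top in both cell types, at 35.7 and 28.0 RPKM, and in neurons its level and that of Eef1a1 lay close together. Eef2, the translocation factor, was lower in neurons than in non-neuronal cells (52.4 ± 6.47 against 87.2 ± 1.97 CPM), with a log2 difference of -0.73 ± 0.10 (adjusted p = 6.32e-07). Eif5a, the hypusinated factor that relieves stalled ribosomes, was higher in neurons by 0.35 ± 0.08 (adjusted p = 0.000717), whereas its paralog Eif5a2 differed by 0.09 ± 0.09 (adjusted p = 0.395).

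The cap-binding proteins gave the second large difference. Eif4e3, a member of the eIF4E family that binds the cap in an unusual way, had 50.9, 51.0 and 52.7 CPM in WT NeuN+ and 13.8, 14.3 and 13.2 CPM in WT NeuN-, and the log2 difference was 1.91 ± 0.07 (adjusted p = 4.07e-17). Per length, Eif4e3 at 20.5 ± 0.384 RPKM exceeded Eif4e (6.69 ± 0.251 RPKM) and Eif4e2 (4.31 ± 0.151 RPKM) in neurons, while in non-neuronal cells the 3 genes lay between 4.61 and 5.47 RPKM. Eif4e itself, the canonical cap-binding protein, was higher in neurons by 0.54 ± 0.05 (adjusted p = 1.39e-09), and Eif4e2, which encodes a repressive relative, was lower by a log2 difference of -0.15 ± 0.05 (adjusted p = 0.00563). Of the 4 genes for inhibitors of eIF4E, Eif4ebp1 was lower in neurons (0.934 ± 0.162 against 2.13 ± 0.349 CPM, log2 difference -1.19 ± 0.25, adjusted p = 0.000201). Eif4ebp2, the main 4E-BP of the brain, was lower in neurons by a log2 difference of -0.49 ± 0.07 (adjusted p = 1.24e-06), and Eif4ebp3 and Eif4enif1 did not pass the test.

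All 10 tested members of the eIF4F group passed the test between cell types, as did 72.4% of all genes. Of the 10, 6 were higher in neurons and 4 in non-neuronal cells (36.1% and 36.3% of all genes). Eif4h, a cofactor of the helicase, and Eif4g2 (DAP5), a scaffold that cannot bind eIF4E, were the lowest in neurons relative to non-neuronal cells, with log2 differences of -0.82 ± 0.05 and -0.74 ± 0.07. The scaffold Eif4g3 was higher in neurons by 0.35 ± 0.05 (adjusted p = 1.79e-06) and its paralog Eif4g1 lower, at -0.14 ± 0.06 (adjusted p = 0.0447). For the helicase paralogs the differences were 0.27 ± 0.08 for Eif4a1 and 0.14 ± 0.06 for Eif4a2, and the libraries of Eif4a2 overlapped between cell types. The call for Eif4a2 (adjusted p = 0.0472) was lost in every alternative fit except some of those that left out 1 library, and that for Eif4g1 was lost without WT NeuN+ replicate 1 (adjusted p = 0.21).

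The eIF2 kinases, which shut down initiation under stress, went in both directions. Eif2ak2 (PKR), the kinase that senses double-stranded RNA, had 4.43, 4.18 and 2.71 CPM in WT neurons and 20.2, 17.97 and 16.9 CPM in WT non-neuronal cells, a log2 difference of -2.28 ± 0.24 (adjusted p = 1.56e-08). Eif2ak3 (PERK), which senses unfolded proteins in the endoplasmic reticulum, was also lower in neurons at -0.57 ± 0.05. Eif2ak1 and Eif2ak4, which sense haem and uncharged tRNA, were higher by 0.28 ± 0.05 and 0.19 ± 0.07. The core of eIF2 differed little, with log2 differences of -0.13 for both Eif2s1 and Eif2s2. Eif2s3x and its Y-linked paralog Eif2s3y did not pass the test, with differences of -0.13 ± 0.08 and -0.03 ± 0.11. Of the 5 eIF2B subunits, which reload eIF2 with GTP, 3 were lower in neurons and none was higher (36.3% and 36.1% of all genes).

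The eIF3 subunits did not move as a block. At an adjusted p under 0.05, 36.1% of all genes were higher in neurons and 36.3% in non-neuronal cells. Of 14 tested, 2 were higher in neurons (Eif3e 0.52 ± 0.05 and Eif3m 0.42 ± 0.06), 5 were higher in non-neuronal cells (Eif3b, Eif3j1, Eif3d, Eif3l and Eif3c, log2 differences from -0.38 to -0.19), and 7 did not pass the test. Eif3j1 and its paralog Eif3j2 had differences of -0.33 ± 0.06 and -0.20 ± 0.12, the latter not past the test (adjusted p = 0.134). These pairs, like Eif2s3x with Eif2s3y and Eif1a with Eif1ax, are close copies whose reads could be split by the counting. Among the factors of start codon recognition, Eif1a, Eif1b and Eif1ax were higher in neurons by 0.73, 0.51 and 0.45, while Eif5 was lower at -0.22. Eif1 itself was at -0.28 ± 0.13 (adjusted p = 0.0582), opposite in sign to its paralog Eif1b.

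The enzymes that modify elongation factors held the remaining members past the limit. Eef2kmt, a lysine methyltransferase of eEF2, had 5.21, 5.80 and 6.52 CPM in WT neurons and 15.7, 15.4 and 16.5 CPM in WT non-neuronal cells (log2 difference -1.44 ± 0.10, adjusted p = 8.86e-12). Eef1akmt3, a lysine methyltransferase of eEF1A, was low in both cell types, at 1.03 ± 0.175 and 0.380 ± 0.0530 CPM, and higher in neurons by 1.43 ± 0.18 (adjusted p = 1.63e-07). Both genes overlap another gene on the opposite strand. The handling of strand in the counting is not given in the sources used here, so reads of the overlapping genes may be included.

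**Figure D2:**
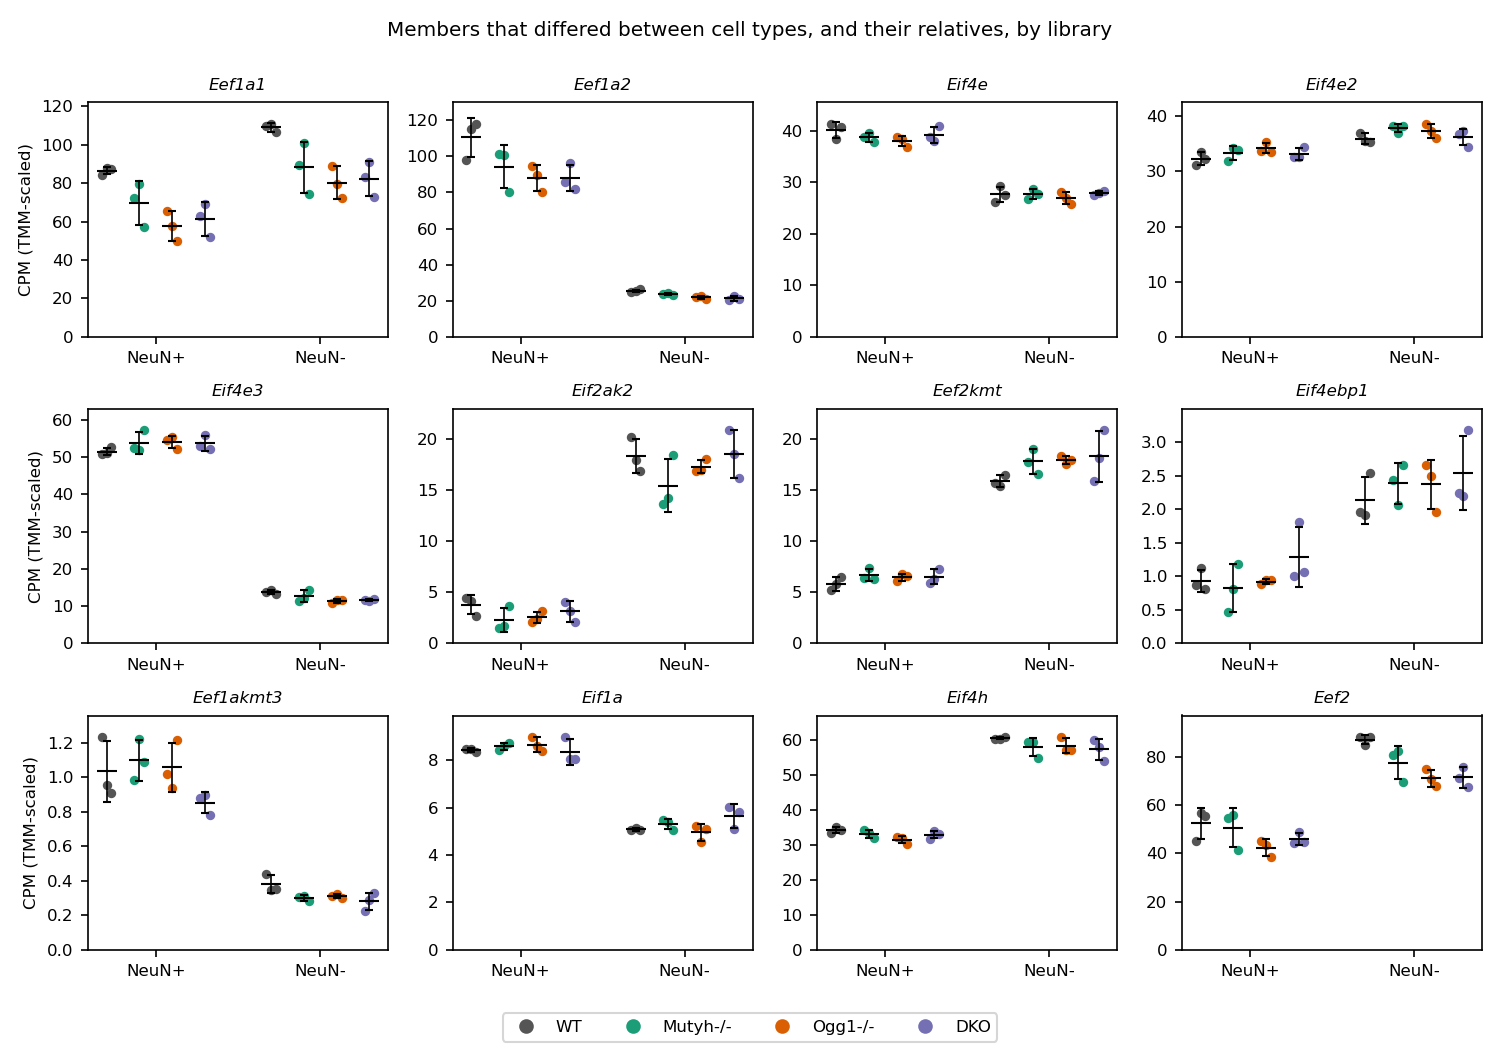
Level of 12 members in each of the 24 libraries (y axis, TMM-scaled CPM from 0, points are libraries, horizontal marks the mean and bars ± 1 SD of 3 libraries), by cell type (x axis) and genotype (colour). Eef1a2 and Eif4e3 were higher in NeuN+ and Eif2ak2, Eef2kmt, Eif4ebp1, Eif4h and Eef2 higher in NeuN- in all 4 genotypes.

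The comparison of each knockout with WT asked whether loss of the glycosylases changed these RNAs. In neurons of Ogg1-/-, 5 members fell at an adjusted p under 0.05 and none rose, and 1 of them, Eef1a1, also passed the limit for a DEG, a log2 fold change beyond 0.5 in either direction. Of all genes tested in NeuN+, 0.574% were DEGs in this comparison and 1.1% had an adjusted p under 0.05. In neurons of DKO 1 member fell, Eif5, and it did not reach the limit (0.494% of all genes at that adjusted p, 0.302% DEGs). No member passed the test in Mutyh-/- neurons (0.641% of all genes at that adjusted p, 0.428% DEGs). In non-neuronal cells none passed in any knockout, where DEGs were 0.273%, 0.229% and 0.116% of all genes in Mutyh-/-, Ogg1-/- and DKO, and 0.32%, 0.342% and 0.179% had an adjusted p under 0.05. The 3 comparisons of a cell type share their WT libraries.

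Eef1a1 had the largest fall of the 5 members that passed in Ogg1-/- neurons. In neurons it had 84.2, 87.7 and 87.3 CPM in WT, 72.4, 79.6 and 57.1 CPM in Mutyh-/-, 65.2, 57.5 and 49.8 CPM in Ogg1-/-, and 62.9, 68.9 and 51.8 CPM in DKO. Every knockout library was below every WT library. The log2 fold change was -0.61 ± 0.12 in Ogg1-/- (adjusted p = 0.0286), -0.51 ± 0.12 in DKO (adjusted p = 0.0847) and -0.31 ± 0.12 in Mutyh-/- (adjusted p = 0.196). In non-neuronal cells the WT libraries had 110, 111 and 107 CPM and the 9 knockout libraries had 72.1 to 101 CPM, again without overlap. There the log2 fold changes were -0.45 ± 0.11 in Ogg1-/- (adjusted p = 0.128), -0.41 ± 0.11 in DKO (adjusted p = 0.184) and -0.31 ± 0.11 in Mutyh-/- (adjusted p = 0.246). The Eef1a1 call in Ogg1-/- neurons held in the 6 fits with all libraries, and it was lost when any WT library or Ogg1-/- replicate 2 or 3 was left out (log2 fold change -0.63 to -0.52, adjusted p 0.0662 to 0.172). Without Ogg1-/- replicate 1 it was -0.71 (adjusted p = 0.0268). A pseudogene copy, Eef1a1-ps, was listed with 13 to 85 counts per library where Eef1a1 had 3846 to 10936, and the handling of reads that match several copies is not given in the sources used here.

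The other 4 members that fell in Ogg1-/- neurons belong to initiation. Eif4g2 had 65.4, 63.2 and 62.2 CPM in WT and 53.7, 50.9 and 47.6 CPM in Ogg1-/-, with a log2 fold change of -0.34 ± 0.06 (adjusted p = 0.0195). Eif1ax, one of the eIF1A genes, had 15.7, 14.9 and 13.9 CPM in WT and 11.7, 10.2 and 10.2 CPM in Ogg1-/- (-0.49 ± 0.10, adjusted p = 0.0351). For both genes all Ogg1-/- libraries lay below all WT libraries. Eif5, the GTPase activator of eIF2, had 37.5, 36.5 and 34.4 CPM in WT and 31.0, 27.7 and 28.7 CPM in Ogg1-/- (-0.33 ± 0.07, adjusted p = 0.0361). Eif3g, an RNA-binding subunit of eIF3, had 13.1, 15.6 and 14.1 CPM in WT and 11.6, 11.7 and 10.8 CPM in Ogg1-/- (-0.35 ± 0.07, adjusted p = 0.0381). These groups did not overlap either. Each of the 4 calls held in only 1 of the 6 fits that left out 1 library. Eif4g2, Eif1ax and Eif5 passed without Ogg1-/- replicate 1 alone (adjusted p 0.0235, 0.043 and 0.0431) and Eif3g without WT replicate 1 alone (adjusted p = 0.0269). The highest adjusted p over these fits was 0.218. Eif4g2 and Eif5 contain a small RNA gene within their span on the same strand.

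In DKO neurons Eif5 had 31.4, 28.7 and 25.9 CPM against 37.5, 36.5 and 34.4 CPM in WT, and fell by 0.35 on the log2 scale (SE 0.07, adjusted p = 0.0412). In Mutyh-/- neurons it had 28.1, 28.8 and 30.5 CPM, with a log2 fold change of -0.31 ± 0.07 (adjusted p = 0.0588). All 9 knockout libraries of neurons were below the 3 WT libraries. In non-neuronal cells Eif5 was between 39.6 and 44.2 CPM in all 12 libraries, and its log2 fold changes were -0.05, -0.03 and -0.02 in Mutyh-/-, Ogg1-/- and DKO. The difference between the cell types in the effect was tested with an interaction term and did not pass, at -0.27 ± 0.09, -0.29 ± 0.09 and -0.32 ± 0.09 (adjusted p 0.388, 0.491 and 0.242). The call in DKO neurons was lost in 5 of the 6 fits that left out 1 library, with adjusted p up to 0.235, and it held without DKO replicate 1 (adjusted p = 0.0148). It was also lost in the fit of the compared groups only (adjusted p = 0.0502).

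**Figure D3:**
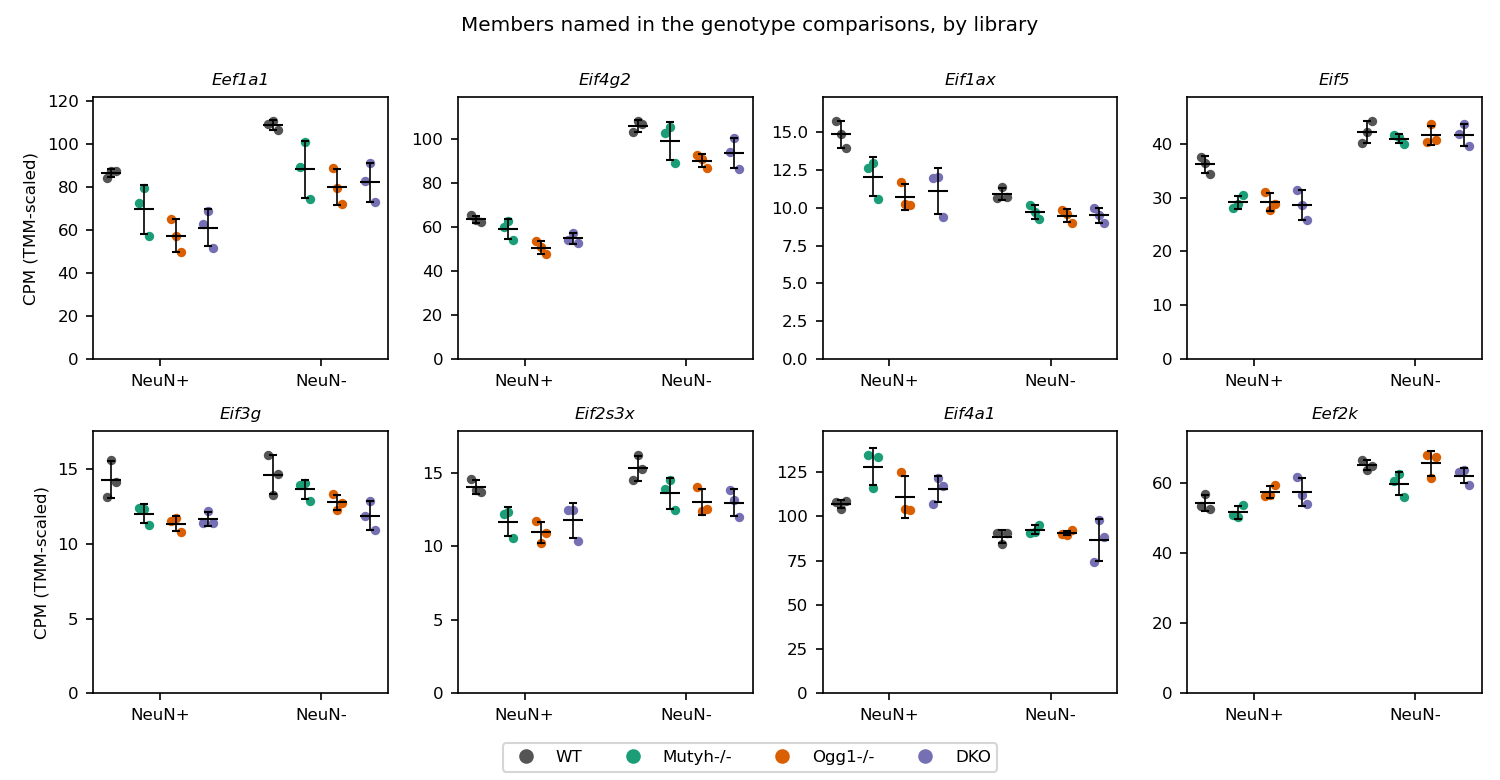
Level of 8 members in each of the 24 libraries (y axis, TMM-scaled CPM from 0, points are libraries, horizontal marks the mean and bars ± 1 SD of 3 libraries), by cell type (x axis) and genotype (colour). In NeuN+ the Ogg1-/- libraries of Eef1a1, Eif4g2, Eif1ax, Eif5 and Eif3g are all below the WT libraries, and in NeuN- the genotypes of Eif5 overlap.

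Beyond single genes, the members were more often lower than higher in every knockout, by small amounts. The median log2 fold change of the 68 members was -0.05, -0.10 and -0.07 in Mutyh-/-, Ogg1-/- and DKO neurons, and -0.06, -0.07 and -0.07 in non-neuronal cells, while the median of all genes lay between -0.01 and 0.01. In neurons 47, 49 and 47 members had a negative value (69.1%, 72.1% and 69.1%, against 51.9%, 47.8% and 50.1% of all genes), and in non-neuronal cells 46, 55 and 52 (67.6%, 80.9% and 76.5%, against 51.2%, 49.8% and 48.5%). All 3 knockout libraries were below all 3 WT libraries for 12, 26 and 21 members in neurons, against 11.2%, 8.98% and 8.35% of all genes, and for 17, 24 and 24 members in non-neuronal cells, against 9.49%, 9.84% and 8.4%. The opposite order was found for 4, 3 and 1 members in neurons (10.4%, 11.1% and 9.13% of all genes) and for 6, 2 and 0 in non-neuronal cells (9.75%, 9.52% and 8.44%). Because genes of one pathway can vary together between libraries, and the comparisons share WT, these counts are a description and carry no test.

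At an unadjusted p under 0.05, 11, 25 and 20 members were lower in Mutyh-/-, Ogg1-/- and DKO neurons, where 9.21%, 7.33% and 7.51% of all genes were. In non-neuronal cells 13, 16 and 19 members were lower at that level, where 6.9%, 6.08% and 6.31% of all genes were. Higher members at that level numbered 3, 0 and 0 in neurons (9.48%, 5.01% and 5.98% of all genes) and 0, 0 and 1 in non-neuronal cells (6.78%, 5.75% and 6.06%). With DESeq2 the members at an adjusted p under 0.05 numbered 2, 12 and 4 in neurons, where 3.22%, 2.19% and 1.56% of all genes passed. In non-neuronal cells they numbered 0, 3 and 4 (1.48%, 1.48% and 1.25% of all genes), and all of these were lower except Eif4a1 in Mutyh-/- neurons. In non-neuronal cells these were Eef1a1, Eef1a2 and Eef2 in Ogg1-/-, and in DKO Eif3g as well.

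**Figure D4:**
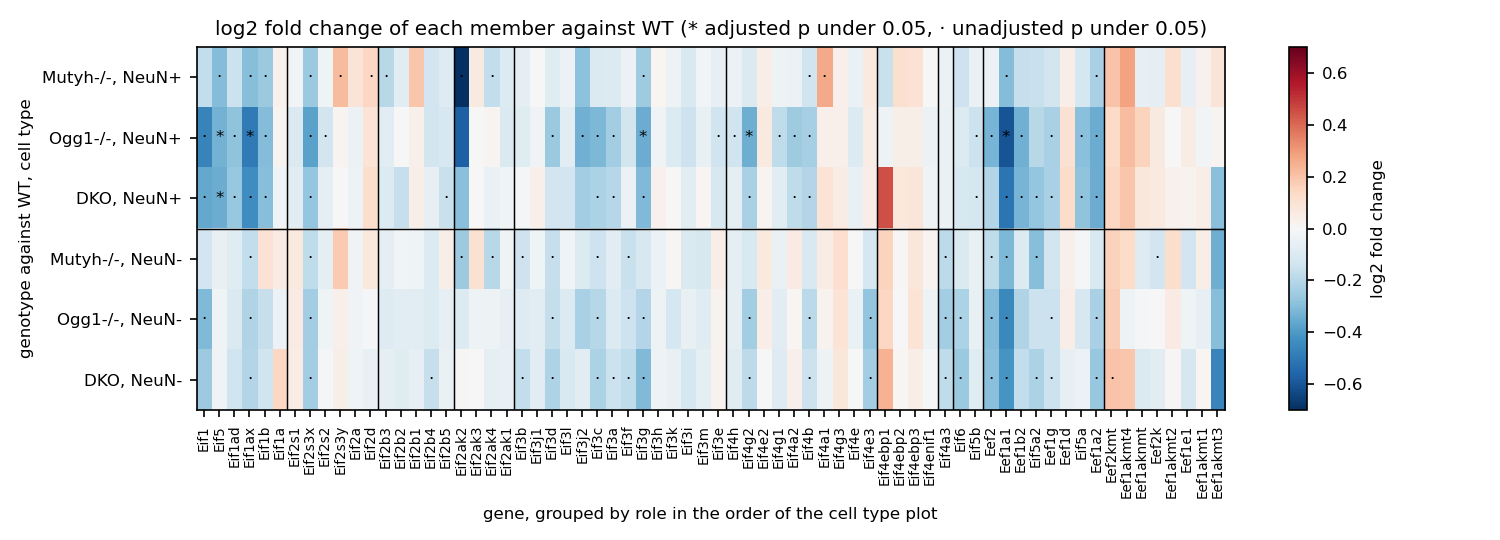
Log2 fold change against WT of the 68 members tested (columns, grouped by role) in the 3 knockouts and both cell types (rows), with blue for lower and red for higher, asterisks at an adjusted p under 0.05 and dots at an unadjusted p under 0.05. Asterisks stand at 5 members in Ogg1-/- neurons and at Eif5 in DKO neurons, and most columns of the start codon, eIF3 and elongation groups are blue.

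By role, assigned by hand, the members grouped under start codon recognition and under elongation had the lowest medians in neurons. The start codon group held Eif1, Eif1a, Eif1ad, Eif1ax, Eif1b and Eif5, and a role in that step was not checked for each. In Ogg1-/- neurons the median log2 fold change was -0.32 for the 6 start codon factors and -0.31 for the 8 elongation factors, and in DKO neurons it was -0.32 and -0.28. In Mutyh-/- neurons these medians were -0.22 and -0.14. In non-neuronal cells the elongation factors had medians of -0.12, -0.18 and -0.20 in Mutyh-/-, Ogg1-/- and DKO, and the start codon factors -0.07, -0.13 and -0.14. There the exon junction helicase Eif4a3 was as low (-0.18, -0.24 and -0.18), and the 2 members grouped under subunit joining, Eif5b and Eif6, had medians of -0.08, -0.14 and -0.17. All 14 eIF3 subunits had negative values in Ogg1-/- neurons, with a median of -0.13, and 6 of them had an unadjusted p under 0.05. Of the 8 enzymes and partners of elongation factors, 7 had positive values in Ogg1-/- neurons (median 0.06) and 3 in Ogg1-/- non-neuronal cells (median -0.02). The 4 inhibitors of eIF4E had a median of 0.00 in Ogg1-/- neurons.

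Within the elongation factors, Eef1a2 and Eef2 were lower in both cell types without passing the test. Eef1a2 had log2 fold changes of -0.35 ± 0.10 in Ogg1-/- and -0.34 ± 0.10 in DKO neurons (adjusted p = 0.116 and 0.139). In non-neuronal cells Eef1a2 had 24.9, 25.2 and 26.4 CPM in WT, 22.0, 22.5 and 21.1 CPM in Ogg1-/- and 20.2, 22.8 and 21.0 CPM in DKO, with adjusted p of 0.117 and 0.0851. In WT, Eef1a2 was 4.33-fold higher in neurons. The summed neuronal markers of the non-neuronal libraries were 998 to 1159 CPM in Ogg1-/- and 961 to 1150 CPM in DKO. Both ranges overlapped that of WT, 1142 to 1293 CPM. All 8 neuronal markers had negative values there, with medians of -0.28 in Ogg1-/- and -0.30 in DKO, and none passed the test. At an unadjusted p under 0.05, 5 and 7 of them were lower (6.08% and 6.31% of all genes). The part of neuronal RNA in the lower Eef1a2 of these libraries was not tested. In bulk nuclei, fewer cells of a type and less RNA per cell cannot be told apart. In neurons Eef2 had 44.9, 56.5 and 55.7 CPM in WT, 45.0, 43.5 and 38.4 CPM in Ogg1-/- and 44.3, 48.9 and 44.6 CPM in DKO. Both groups overlapped WT. Its log2 fold change was -0.20 ± 0.11 in DKO neurons (adjusted p = 0.442) and -0.04 ± 0.11 in Mutyh-/- neurons (adjusted p = 0.879). Eef2 had log2 fold changes of -0.30 ± 0.07 in Ogg1-/- and -0.29 ± 0.07 in DKO non-neuronal cells (adjusted p = 0.0941 and 0.125). Eef2 is lower in neurons than in non-neuronal cells, and the summed astrocyte markers were higher in these libraries (3247 to 4112 and 3468 to 3628 CPM, WT 2789 to 3314 CPM) and those of oligodendrocytes lower (5045 to 5667 and 4501 to 5578 CPM, WT 5911 to 6645 CPM). In neurons the neuronal marker sums were 13520 to 14540 CPM in Ogg1-/- and 13800 to 14210 CPM in DKO, and 12450 to 13760 CPM in WT. All 6 astrocyte markers had negative values in the neurons of each knockout (medians -0.22, -0.10 and -0.25 in Mutyh-/-, Ogg1-/- and DKO), and none passed the test. Their summed level there was 286.7 to 300.5, 274.7 to 340.0 and 270.9 to 325.7 CPM, against 293.7 to 358.3 CPM in WT. The oligodendrocyte markers had medians of -0.19, 0.01 and -0.43 in these neurons (3, 2 and 4 of 5 negative) and the 3 precursor markers -0.14, -0.20 and -0.47, and none of these passed. The part of glial RNA in the lower level of the members in neurons was not tested.

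Other members named by their rank did not pass the test. In Mutyh-/- neurons the helicase Eif4a1 was higher, with 135, 116 and 134 CPM against 108, 104 and 108 CPM in WT, at 0.27 ± 0.08 (adjusted p = 0.0987). Its span holds 3 small RNA genes on the same strand, so its counts are uncertain. Eif2ak2 in these neurons had 1.52, 1.67 and 3.63 CPM against 4.43, 4.18 and 2.71 CPM in WT, overlapping groups with a log2 fold change of -0.70 ± 0.30 (adjusted p = 0.234). Without Mutyh-/- replicate 3, Eif2ak2 was the 1 member that passed as a DEG in that comparison. Eif2b3, a subunit of eIF2B, lies 0.2 Mb from Mutyh on chromosome 4 and was the only member within 10 Mb of a deleted gene. It had 16.6, 17.8 and 19.6 CPM in Mutyh-/- neurons and between 19.99 and 22.1 CPM in the 3 WT libraries (-0.20 ± 0.07, adjusted p = 0.153), and in Mutyh-/- non-neuronal cells its log2 fold change was -0.07 ± 0.05. In Mutyh-/- non-neuronal cells the smallest adjusted p among the members was 0.194, for Eif5a2.

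Between the knockouts no member passed at an adjusted p under 0.05 in edgeR with all libraries and the filter on low counts. In neurons 0.654%, 0.163% and 0.252% of all genes passed in Ogg1-/- against Mutyh-/-, DKO against Mutyh-/- and DKO against Ogg1-/-, and in non-neuronal cells 0.788%, 0.148% and 0.157%. At an unadjusted p under 0.05, 3 members were higher and 11 lower in Ogg1-/- than in Mutyh-/- neurons (6.57% and 6.09% of all genes), led by Eif4g2 at -0.24 ± 0.06 (adjusted p = 0.121). Eif4g2 was the 1 member that passed there with DESeq2 (1.36% of all genes) and with no low-count filter (1.27%), and without Mutyh-/- replicate 3 there were 6 lower members and 1 higher (3.79% of all genes). Between DKO and Mutyh-/- neurons 2 were higher and 4 lower (3.4% and 3.45%), and between DKO and Ogg1-/- neurons 0 in either direction (1.47% and 2.79%). In non-neuronal cells there were 2 higher and 3 lower in Ogg1-/- against Mutyh-/- (5.9% and 5.56%), 1 and 5 in DKO against Mutyh-/- (5.79% and 5.21%), and 1 and 0 in DKO against Ogg1-/- (2.16% and 2.18%). DESeq2 called no member in the comparisons between knockouts other than that of Ogg1-/- with Mutyh-/- neurons.

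The effect of a knockout did not differ between the cell types for any member at an adjusted p under 0.05 (0.0209%, 0.0537% and 0.0567% of all genes passed for Mutyh-/-, Ogg1-/- and DKO), and DESeq2 also gave 0. At an unadjusted p under 0.05 the effect was higher in neurons for 0, 2 and 3 members (3.93%, 4.05% and 4.64% of all genes) and lower for 2, 3 and 2 (4.64%, 3.04% and 4.76%). Eif5 and Eif4e3 were among them in Ogg1-/- and DKO. Eif4e3 had 54.6, 55.5 and 52.2 CPM in Ogg1-/- neurons against 50.9, 51.0 and 52.7 CPM in WT, and 10.9, 11.8 and 11.6 CPM in Ogg1-/- non-neuronal cells against 13.8, 14.3 and 13.2 CPM in WT. Its interaction in Ogg1-/- was 0.34 ± 0.09 (adjusted p = 0.408) and in DKO 0.30 ± 0.09 (adjusted p = 0.302). The 8 neuronal markers had interaction medians of 0.30 in Ogg1-/- and 0.37 in DKO, with 7 of 8 positive in each. All 8 had negative values in the non-neuronal cells of both knockouts. The part of neuronal RNA in the Eif4e3 values was not tested.

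Genes with TOP mRNAs, listed by hand from textbook knowledge, included 11 members. Their median log2 fold change was -0.23 in Ogg1-/- and -0.20 in DKO neurons, against -0.08 and -0.05 for the other 57 members. In non-neuronal cells it was -0.15 in both genotypes, against -0.06 and -0.07. In Mutyh-/- it was -0.06 against -0.05 in neurons and -0.11 against -0.05 in non-neuronal cells. The 6 other TOP mRNAs listed, none of them a translation factor of this family, had negative values throughout in Ogg1-/- and DKO of both cell types, with medians from -0.14 to -0.12. In Mutyh-/- 5 were negative in neurons and 6 in non-neuronal cells, with a median of -0.10 in each. Of these 6, Npm1, which encodes a nucleolar chaperone, fell in Ogg1-/- neurons (-0.44 ± 0.08, adjusted p = 0.0183), and it passed in DKO neurons as well (-0.40 ± 0.08, adjusted p = 0.0431). The members with a pyrimidine run of 8 or more anywhere in the window of 30 bases, as for Eef1a1 and Eef1a2 above, had a median of -0.10 in Ogg1-/- neurons (10 members), and the 43 with shorter runs one of -0.10 too. In DKO neurons these medians were -0.15 and -0.06. Run length at an annotated start does not stand in for the TOP list, since Eef2, which is listed, has a run of 2.

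Genes of neighbouring pathways were tested in the same fits. None of the 14 genes of mTOR and cap signalling, of the 8 release and recycling factors, of the 5 poly(A)-binding proteins and partners, of the 2 enzymes of eIF5A hypusination or of the 7 mitochondrial factors passed the test in any knockout and cell type. Of all genes, 0.179% to 1.1% had an adjusted p under 0.05 in these comparisons, so none passing in lists this short is near that share. The mTOR list had medians from -0.02 to 0.04. Of the targets of the integrated stress response, which eIF2 kinases switch on, 8 of 9 tested had negative values in Ogg1-/- neurons (median -0.20) and none passed, with Atf4, the transcription factor at its centre, at -0.34 ± 0.10 (adjusted p = 0.13). In DKO neurons the median of this list was 0.06.

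Members that span little of the genome tended to be lower than long ones, least so in Mutyh-/- non-neuronal cells. Across the 67 tested members with an annotated span, Spearman's rho between log2 fold change and span was 0.33 in Ogg1-/- and 0.36 in DKO neurons, and 0.36 and 0.30 in non-neuronal cells. In Mutyh-/- it was 0.24 and 0.09. With the share of the span that is exon, rho was -0.40 in Ogg1-/- and -0.42 in DKO neurons, and -0.25 and -0.28 in non-neuronal cells. In Mutyh-/- this rho was -0.22 in neurons and -0.095 in non-neuronal cells. The points share libraries, and rho is given as a description. The 7 members under 5 kb had a median of -0.34 in Ogg1-/- neurons, and the 10 members of 40 kb or more had a median of -0.01. The same order held for all protein-coding genes, at -0.10 for the 1833 under 5 kb and 0.01 for the 5916 of 40 kb or more, but not for all annotated genes, at 0.02 for both the 10282 under 5 kb and the 7002 of 40 kb or more. In the bin of 5 to 10 kb the medians were -0.13 for 13 members and -0.04 for 2152 coding genes. The bins did not follow span in every comparison. In DKO non-neuronal cells members of 20 to 40 kb had a median of -0.02 and those of 40 kb or more one of -0.06. The part of gene span in the lower level of the members was not tested.

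**Figure D5:**
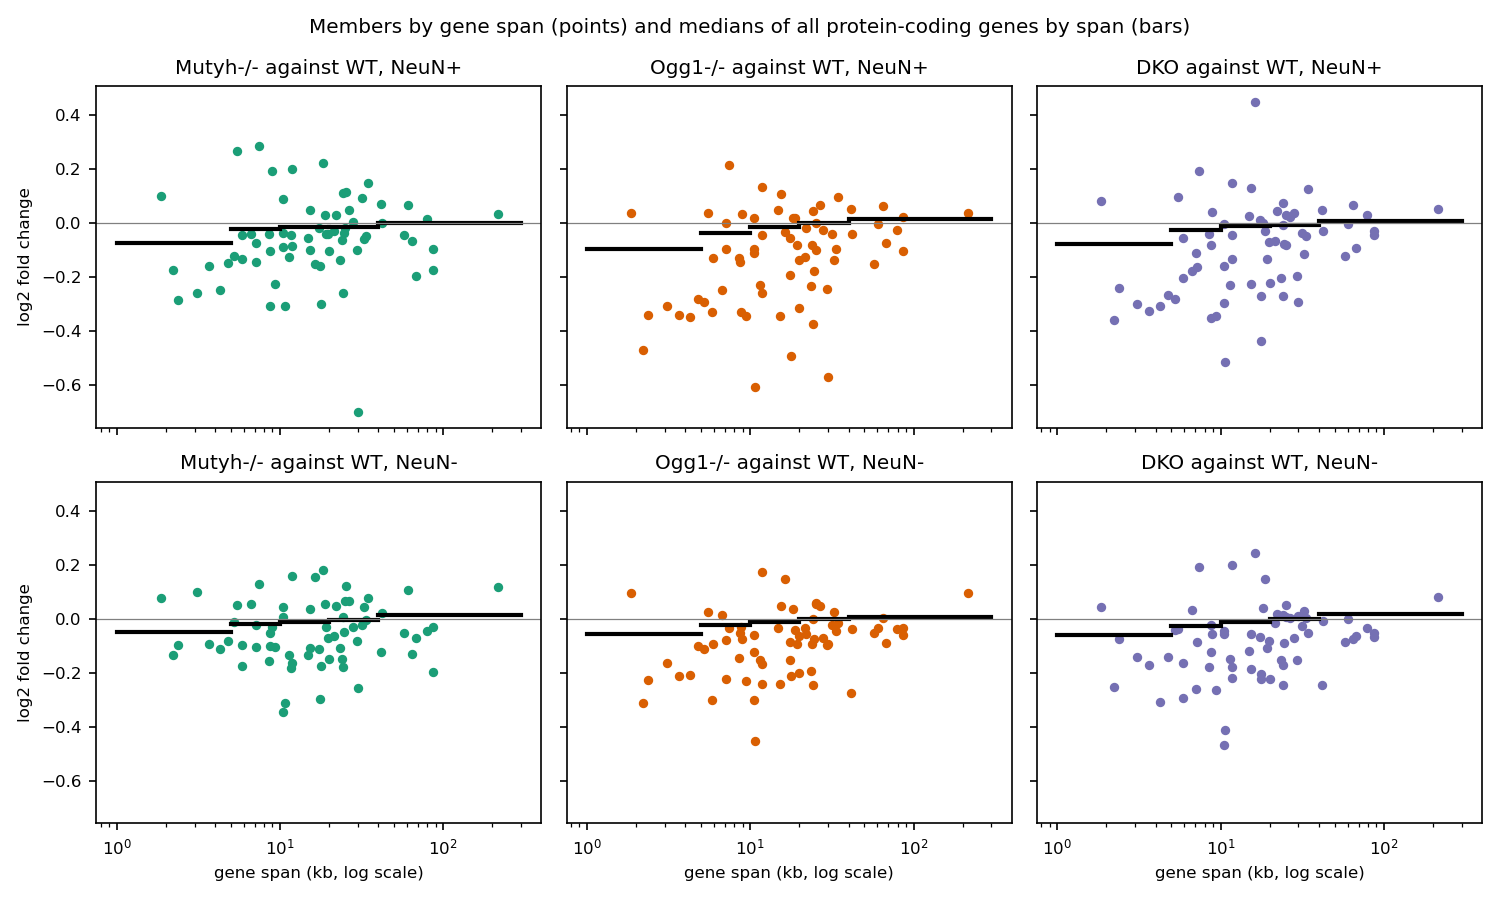
Log2 fold change against WT (y axis) of the tested members by gene span (x axis, kb, log scale), as points, in 3 knockouts (columns) and NeuN+ (top) or NeuN- (bottom), with black bars for the median of all protein-coding genes in each span bin (the outermost bars end at the plot's limits). In Ogg1-/- neurons the members under 5 kb have a median of -0.34 and the coding genes of that span a median of -0.10.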

How the data were processed

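The authors aligned read pairs of nuclear RNA to GRCm38 with HISAT2 2.1.0 and used featureCounts with the Ensembl 102 annotation to count read pairs, per the paper's methods and the submitters' processing notes. The values they deposited are raw counts, 1 column per library, and the handling of strand and of multiply aligned reads is not given in the sources used here. Counts were filtered with filterByExpr and scaled by TMM in edgeR 4.0.16 (R 4.3.3), leaving 30132 genes in NeuN+, 31863 in NeuN- and 33523 over all 24 libraries. The 12 libraries of a cell type were fitted together for genotypes, and all 24 for cell types and interactions, by the quasi-likelihood test with Benjamini-Hochberg adjustment over all genes tested. DEGs were genes whose adjusted p was below 0.05 and whose log2 fold change lay beyond 0.5 either way (beyond 1 between cell types), and SE is the size of the log2 fold change divided by the root of F. RPKM and spans use GENCODE vM21, by symbol (69 of 72 members). Functions were tested on simulated data.

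Members and lists were chosen with earlier results of these data known. Genes named in full are the paralog sets, members that passed, the smallest p where fewer than 3 were DEGs, and members within 10 Mb of Ogg1 or Mutyh. DESeq2 1.42.0 with its Wald test, DESeq2 size factors, filters of none and of 10 counts in every library, fits of the compared groups only, a replicate block and leaving out each library were tried. At BCVs of 0.0823 (NeuN+) and 0.124 (NeuN-), small changes may not be detectable with 3 libraries. Between replicates of a group the chi-square per gene was 5.26 to 35.7, where counting noise alone gives about 1. No mitochondrial genes are listed in the tables used here, so cytoplasmic RNA was not estimated from them.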

Additional observations from a re-analysis of the deposited data

How the results depend on the processing

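The 6 members called between WT cell types were the same genes in all 12 alternatives. The median log2 difference of the 68 members moved from -0.0628 to -0.0904 with 10 counts in every library, and ranged from -0.0945 to -0.0314 when 1 library was left out. In Ogg1-/- neurons the count of DEGs was 1 in 5 of the 6 fits with all libraries and 2 in the fit of the compared groups only, and 0 to 2 with 1 library left out (0 without any 1 of the WT libraries or Ogg1-/- replicate 2 or 3, and 2 without Ogg1-/- replicate 1). In DKO neurons it was 0, and 1 (Eef1a1) with DESeq2, without a low-count filter, with the replicate block and in the fit of the compared groups only. In Mutyh-/- neurons it was 0, and 0 to 1 with 1 library left out (1, Eif2ak2, without Mutyh-/- replicate 3). The medians ranged with 1 library left out from -0.0889 (WT replicate 1) to -0.0215 (Mutyh-/- replicate 3) in Mutyh-/- neurons, -0.0924 (WT replicate 1) to -0.0419 (WT replicate 2) in DKO neurons and -0.0708 to -0.035 (Mutyh-/- replicates 2 and 3) in Mutyh-/- non-neuronal cells, and they remained negative in all 12 alternatives of each of the 6 comparisons with WT. The members at an adjusted p under 0.05 in Ogg1-/- neurons numbered 5 with DESeq2 size factors (1.09% of all genes), 12 with DESeq2 (2.19%), 12 without a filter (1.43%), 18 in the fit of the compared groups only (2.87%) and 0 to 4 with 1 library left out (0.235% to 0.688%). In DKO neurons they numbered 1, 4 with DESeq2 (1.56%) and 4 without a filter (1.2%). Of values that changed sign with 1 library left out, Eif5 in non-neuronal cells ranged from -0.0695 to 0.0119 in Ogg1-/- (highest without WT replicate 3) and from -0.0615 to 0.0138 in DKO (highest without DKO replicate 3), and Eif2s3y between cell types from -0.1053 to 0.0121 (highest without WT NeuN- replicate 3). The causes were not tested.

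Replicate numbers were not used for pairing in the main fits, between genotypes or between cell types. Same-numbered libraries of 2 genotypes had a mean correlation of deviations of -0.006 in NeuN+ and 0.056 in NeuN-. For the 2 cell types of a genotype the mean was 0.162 (0.0022 to 0.3412), with 8 of 12 pairs over 0.1. Among these were all 3 pairs of DKO and 1 of 3 of WT. Libraries of a genotype with different numbers in the 2 cell types had a mean of -0.079, with 1 of 24 over 0.1. Deviations from a group mean cancel within the group, so this mean follows from the same-numbered pairs and is no separate contrast. Whether a number marks a shared sort is not given in the sources used here. With the block the 6 members called between cell types were the same, and 0 members passed for a difference of the effect between cell types. Between genotypes the members at an adjusted p under 0.05 with the replicate block numbered 8 in Ogg1-/- (1.67% of all genes) and 3 in DKO neurons (1.12%) and 1 in Ogg1-/- non-neuronal cells (Eef1a1, adjusted p = 0.0356, 0.383%), against 5, 1 and 0 without it (1.1%, 0.494% and 0.342%).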

Other observations

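Eef1a1 was lowest in replicate 3 of each of the 6 knockout groups, at 57.1, 49.8 and 51.8 CPM in neurons and 74.3, 72.1 and 72.9 CPM in non-neuronal cells of Mutyh-/-, Ogg1-/- and DKO, and this was noticed after the values were seen. In WT replicate 3 it had 87.3 and 107 CPM. The latter was also the lowest of its group (WT NeuN- 110, 111 and 107 CPM), and the former was not (WT NeuN+ 84.2, 87.7 and 87.3 CPM). The meaning of the replicate number is not given in the sources used here. Eif1, a factor of start codon recognition, was also lowest in replicate 3 of these 6 groups, at 12.0, 11.7 and 11.3 CPM in neurons and 15.3, 15.3 and 14.4 CPM in non-neuronal cells. Replicate 3 was the lowest for Eif1 in WT as well, by little. There it had 16.35, 18.26 and 15.89 CPM in NeuN+ and 19.99, 21.23 and 19.93 CPM in NeuN-. The median log2 level of the members against the mean of WT was lowest in DKO NeuN- replicate 3 (-0.14), the library with the highest summed choroid plexus markers (221 CPM, other NeuN- libraries 14.0 to 101 CPM). The part of choroid plexus RNA in this was not tested. In the 9 knockout libraries of neurons the median was between -0.0804 and -0.0334. The WT libraries of neurons lay between -0.0309 (replicate 1) and 0.0239, so the highest knockout library was close to WT.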
